A study of Mus musculus with 6 samples.

Results

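The 1058 OCT4 regions described here were bound by OCT4 in Esrrb-GFP high embryonic stem cells (ESCs), were not called as OCT4 regions in Esrrb-GFP medium or Esrrb-GFP negative cells, and were not called as NANOG regions in any of the 3 populations. They were selected on presence or absence in the 6 lists of bound regions, as intervals that stand in the OCT4 list of high cells and in no other list. They made up 8.50% (95% Wilson interval 8.022 to 9.001) of the 12449 OCT4 regions of high cells and 4.45% of the 23767 distinct regions of all lists.

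OCT4 and NANOG were profiled by chromatin immunoprecipitation and sequencing (ChIP-Seq) in E14Tg2a mouse ESCs of the line Esrrb-2a-GFPd-IBIH, in which a destabilised GFP linked through a 2a peptide reports *Esrrb* expression, grown in serum and LIF. Cells were fixed and then sorted by GFP into high (the top 10% of the distribution), medium (15%, the cells next above the negative gate) and negative fractions, so every group carries the same reporter and differs in reporter level. Each factor and fraction gave 1 library from 3 pooled ChIPs, on chromatin of several sorts of this 1 line and without replicates, so no p-value between fractions is given. The deposited lists hold intervals without signal or read numbers, the depth of each library is unknown, and the intervals printed here cover counting error over regions only, with regions that are not replicates.

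OCT4 is the POU-family transcription factor required for pluripotency. It binds the octamer, often beside SOX2 at a composite Oct-Sox element. NANOG and the orphan nuclear receptor ESRRB support self-renewal of naive ESCs, and ESRRB binds an extended half-site as a monomer. In serum and LIF, ESCs vary in ESRRB and NANOG levels while OCT4 remains broadly expressed, and cells low in ESRRB and NANOG are more prone to differentiate.

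The selection can be followed in the lists. Of the OCT4 regions of high cells, 2657 were absent from the medium list, 21.3%, and 45.1% were absent from the negative list. In neither list stood 1538 regions, 12.4%, and 480 of these held NANOG in at least 1 population, 479 of them in high, 228 in medium and 4 in negative cells. The remaining 1058 regions were 68.8% (66.4 to 71.1) of the 1538, and 12.1% (11.5 to 12.8) of the 8717 OCT4 regions of high cells without NANOG in any list. These counts are what the rule fixed and are given as a description. The authors counted a region as lost in any population that kept under 50% of the strongest signal seen there, after scaling for library depth, so absence from a list is a lower signal or no call, and the 2 cannot be told apart from intervals alone.

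Sequence was the first property that the selection had not used. The regions with the closest Oct-Sox matches and the 3 widest regions with an exact ESRRB motif are shown first, since the comparison of classes below turns on these 2 motifs. Sequences are from the plus strand of mm9, 5′ to 3′, with the matched motif in capitals. For the Oct-Sox element, 1 region held a match with 0 mismatches, 112733 bp upstream of *Sesn3*, and the others shown have 1 mismatch. They lie in an intron of *Tmem51*, an intron of *Bbs9*, an intron of *Cntnap4* and between genes, 73405 bp from *B230364G03Rik*. The first 2 also held an exact octamer, ATGCAAAT, within 100 bp of the centre. The fragment at *Tmem51* runs past the region to include its match, and the central 31 bases of the last region occurred 58 times in the genome.
chr9:13967832-13968011: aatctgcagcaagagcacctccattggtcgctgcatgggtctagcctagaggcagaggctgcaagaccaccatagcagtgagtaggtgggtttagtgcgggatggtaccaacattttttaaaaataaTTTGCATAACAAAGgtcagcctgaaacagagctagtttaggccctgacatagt
chr4:141622472-141622636: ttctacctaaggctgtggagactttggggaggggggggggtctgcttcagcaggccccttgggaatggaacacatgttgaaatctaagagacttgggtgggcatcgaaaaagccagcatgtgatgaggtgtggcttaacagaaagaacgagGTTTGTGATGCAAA
chr9:22537652-22537771: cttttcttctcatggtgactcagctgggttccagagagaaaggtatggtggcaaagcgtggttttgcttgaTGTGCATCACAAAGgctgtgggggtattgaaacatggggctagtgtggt
chr8:115388552-115388651: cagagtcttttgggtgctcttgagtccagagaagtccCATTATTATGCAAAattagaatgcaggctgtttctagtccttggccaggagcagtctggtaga
chr10:14553932-14554031: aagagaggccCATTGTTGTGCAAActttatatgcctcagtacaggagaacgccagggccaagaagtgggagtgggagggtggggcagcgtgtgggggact

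The exact ESRRB motif, TCAAGGTCA, lay 1289 bp beyond *Hist1h2bp* in a region 360 bp wide, of which the central 201 bases are shown, in an intron of *Rbfox1* and in an intron of *Sdk1*. None of these 3 regions held an octamer or an Oct-Sox match of at most 2 mismatches within 100 bp of the centre.
chr13:21882452-21882652: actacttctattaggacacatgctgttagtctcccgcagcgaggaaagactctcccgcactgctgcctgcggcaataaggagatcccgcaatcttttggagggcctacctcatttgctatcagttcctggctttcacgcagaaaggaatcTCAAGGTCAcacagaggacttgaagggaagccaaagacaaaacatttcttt
chr16:7081932-7082151: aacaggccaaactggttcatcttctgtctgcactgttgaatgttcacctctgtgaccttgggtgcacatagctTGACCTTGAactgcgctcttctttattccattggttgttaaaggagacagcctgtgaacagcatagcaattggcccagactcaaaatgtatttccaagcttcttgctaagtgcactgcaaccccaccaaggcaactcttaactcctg
chr5:141869872-141870051: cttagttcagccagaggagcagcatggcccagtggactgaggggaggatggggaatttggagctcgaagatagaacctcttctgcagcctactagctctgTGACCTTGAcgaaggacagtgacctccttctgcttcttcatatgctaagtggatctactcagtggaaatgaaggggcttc

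Both strands were searched up to 100 bp from each centre, with no mismatch for the octamer, at most 2 for the Oct-Sox element and at most 1 for the ESRRB motif. The last bases of the Oct-Sox element are shared with the octamer, so the 2 motifs overlap. The octamer was found in 84 of the 1058 regions, 7.94% (6.46 to 9.72), beside 7.87% of all 23767 regions. The Oct-Sox element was found in 184, 17.4% (15.2 to 19.8), beside 17.7% of all regions. One or the other was found in 251 regions, 23.7% (21.3 to 26.4), beside 23.1% of all regions. The ESRRB motif was found in 115, 10.9% (9.13 to 12.9), beside 11.2% of all regions. The shares of all 3 motifs were therefore close to those over all regions. In windows 10 kb downstream of the same regions, the shares were 0.945%, 2.08% and 6.90% (5.52 to 8.59), so that the octamer and Oct-Sox matches stood far above their genomic surroundings and the ESRRB matches by much less.

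Against OCT4 regions that held no NANOG and were bound in all 3 populations (4166 regions), the high-only regions carried fewer OCT4 motifs and more ESRRB motifs. The octamer was found in 12.4% of the regions bound throughout, with an odds ratio of 0.611 (0.480 to 0.778) for the high-only regions. The Oct-Sox element was found in 28.3%, with an odds ratio of 0.533 (0.448 to 0.633). The ESRRB motif was found in 7.18%, with an odds ratio of 1.58 (1.26 to 1.98). Of 16 motifs scanned, including those of KLF, SOX, STAT3, TCF, OTX, GATA, AP-1, TEAD, ETS, YY1, SP and CTCF, these 3 were those for which the interval excluded 1 in this comparison.

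Against regions bound in high and medium but not negative cells (2484 regions without NANOG), the motif content was close. The octamer was found in 8.29% of these and the ESRRB motif in 12.0%, with odds ratios of 0.954 (0.732 to 1.24) and 0.891 (0.709 to 1.12), whose intervals include 1. The Oct-Sox element was found in 20.4%, with an odds ratio of 0.821 (0.681 to 0.989). That interval included 1 when the odds ratio was stratified by region width, 0.862, or taken in windows of 50 bp either side, 0.848. The GATA hexamer was the other motif to differ, at 8.51% of the high-only and 6.28% of the high and medium regions. Its odds ratio was 1.39 (1.06 to 1.82), without adjustment for the number of motifs scanned. Over all regions the GATA share was 9.07%, above that of the high-only regions. The GATA interval included 1 against the regions bound throughout, 1.11 (0.872 to 1.42), and against those bound in medium cells alone, 1.31 (0.996 to 1.74).

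Against regions bound in medium cells alone (2029 regions without NANOG), the Oct-Sox element separated the classes. It was found in 9.12% of the medium-only regions, with an odds ratio of 2.10 (1.69 to 2.61) for the high-only regions. Stratified by quartiles of GC content the odds ratio was 1.54, below that interval and still above 1. Median GC content was 51.2% in the medium-only and 48.3% in the high-only regions, and the part of base composition in the motif differences was not tested. The SOX motif differed in the same direction, at 5.58% of the high-only and 3.20% of the medium-only regions, odds ratio 1.78 (1.24 to 2.56). Less frequent in the high-only regions were the SP motif, 16.9% against 26.4%, odds ratio 0.569 (0.471 to 0.687), and the E-box, 2.27% against 4.14%, odds ratio 0.537 (0.339 to 0.851). Over all regions the shares of these motifs were 6.28%, 17.1% and 2.18%, each nearer to the high-only than to the medium-only regions. Intervals for the octamer, 6.46% of the medium-only regions, and for the ESRRB motif, 9.56%, included 1 at odds ratios of 1.25 and 1.15.

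The 479 high-only OCT4 regions that did hold NANOG in high cells are the counterpart with the co-bound factor. The Oct-Sox element was found in 16.9% of them and the ESRRB motif in 14.4% (11.5 to 17.8), against 17.4% and 10.9% without NANOG. The difference between these 2 sets was not tested, and the intervals of the ESRRB shares overlapped.

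**Figure D1:**
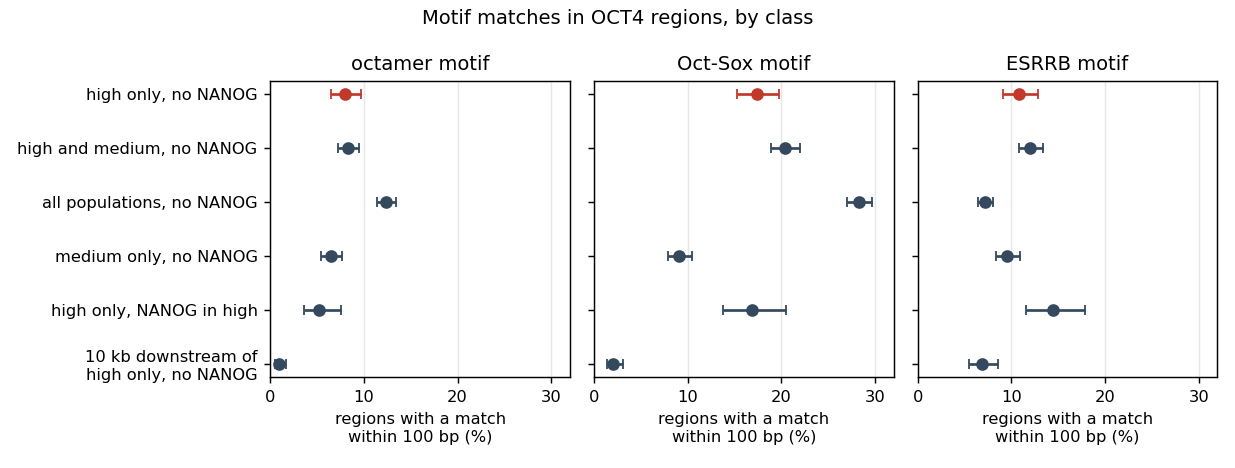
Share of regions (x axis, %) with an octamer, Oct-Sox or ESRRB match within 100 bp of the centre, for each class of OCT4 regions and for windows 10 kb downstream of the high-only regions. Points are shares and bars are 95% Wilson intervals over regions. The high-only regions (red) lie below the regions of all populations for both OCT4 motifs, at 7.94% against 12.4% and 17.4% against 28.3%, and above them for the ESRRB motif, at 10.9% against 7.18%.

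Within the high-only regions, the ESRRB motif was about as frequent beside an OCT4 motif as without one. Both were found in 25 regions, an OCT4 motif without the ESRRB motif in 226, the ESRRB motif without an OCT4 motif in 90, and neither in 717, 67.8%. Of regions with an OCT4 motif, 9.96% (6.84 to 14.3) held the ESRRB motif, and of those without, 11.2% (9.16 to 13.5). Few matches were perfect. The ESRRB motif was exact in 14 regions, the Oct-Sox element had 0 mismatches in 1 region, 1 mismatch in 26 and 2 mismatches in 157, and 17 regions held an exact octamer together with an Oct-Sox match.

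OCT4 motif matches were more often near the region centre than ESRRB motif matches. Of 217 high-only regions with an Oct-Sox match within 250 bp, 66.4% (59.8 to 72.3) had the best match within 50 bp of the centre, at a median distance of 29.5 bp. For the octamer this was 51.4% (42.0 to 60.7) of 107 regions, at a median of 46.5 bp. For the ESRRB motif it was 28.9% (23.4 to 35.1) of 228 regions, at a median of 98 bp, an interval below those of both OCT4 motifs. In regions bound in all 3 populations the corresponding shares were 74.0% (71.6 to 76.3), 63.7% (59.8 to 67.3) and 21.3% (18.4 to 24.5). For each motif the intervals of the 2 classes overlapped, and the differences between classes were not tested. Background matches differed between the motifs, at 6.90% for the ESRRB motif against 0.945% for the octamer and 2.08% for the Oct-Sox element in windows 10 kb downstream. How far this background sets the difference in central shares between motifs was not tested.

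**Figure D2:**
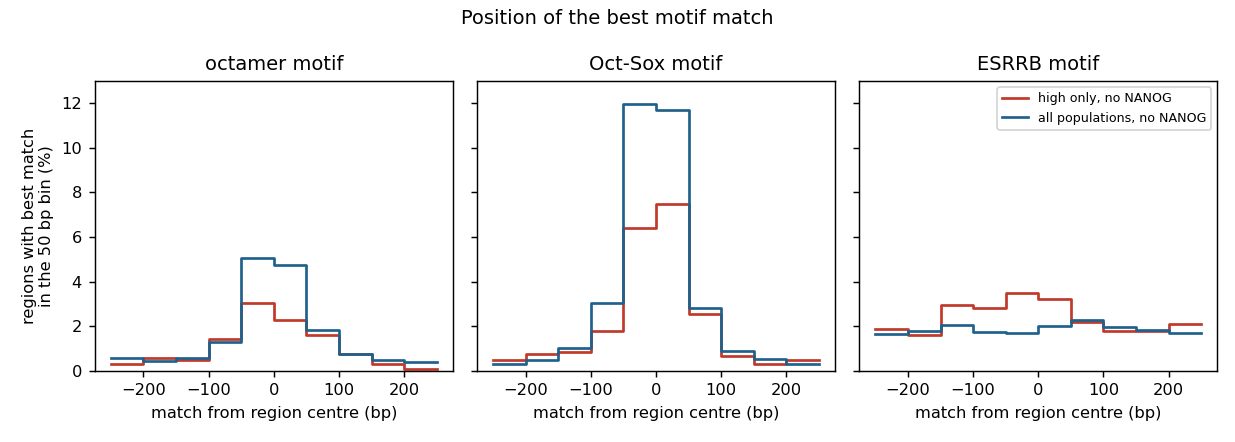
Position of motif matches relative to the region centre (x axis, bp), in bins of 50 bp, as the share of all regions of the class with a match in the bin (y axis, %). Every match within the mismatch limit is counted, not the best match alone as the labels in the plot say. A region with matches in several bins counts in each. The high-only regions (red) and the regions of all populations (blue) both peak at the centre for the octamer and the Oct-Sox element, with a lower peak in the high-only regions, and the ESRRB motif is the one with more central matches in the high-only regions.

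Width was part of neither the rule nor the motif search, but widths come from peaks merged over all datasets and so depend in part on how many libraries gave a call. High-only regions were narrow, with a median of 60 bp (quartiles 40 and 100 bp, largest 680 bp), and 658 of them, 62.2%, were 40 or 60 bp wide. The median was 80 bp in the high and medium class, 100 bp in the class bound throughout and 60 bp in the medium-only class. The search covered 100 bp either side of the centre at every width. Regions wider than 201 bp were therefore searched in their central part alone. Within this window, the widest regions were not the richest in OCT4 motifs. An octamer or Oct-Sox match was found in 21.5% of high-only regions 40 bp wide, 23.5% of those 60 bp wide, 32.7% (26.8 to 39.2) of those from 80 to 120 bp and 17.5% (12.7 to 23.6) of those of 140 bp or more, and the last 2 intervals did not overlap. Median GC content of the 201 bp windows was 48.3% (interquartile range 44.8 to 51.7), beside 48.8% for the regions bound throughout and 51.2% for the medium-only regions.

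The 5 widest regions illustrate this. They lay in introns of *Vti1a* (chr19:55630832-55631511, 680 bp), *Wnt3a* (chr11:59095612-59096091, 480 bp), *Ildr1* (chr16:36707972-36708431, 460 bp) and *Magi1* (chr6:94130672-94131131, 460 bp), and 9628 bp beyond *AI854517* (chr7:86688912-86689391, 480 bp). *Wnt3a* encodes a secreted Wnt ligand and *Magi1* a scaffold protein of cell junctions. Within 100 bp of the centre, the region at *Ildr1* held an exact octamer and the region at *Magi1* an ESRRB motif with 1 mismatch. None of the 5 held an Oct-Sox match in that window, which leaves out their outer parts.

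Most of the regions lay away from promoters. By their centres, 585 were between genes, 55.3%, 434 in introns, 41.0%, and 39 in exons, 3.69%. Over all regions the shares were close to these, at 56.3%, 39.9% and 3.86%. A transcription start site was within 1 kb of 100 regions, 9.45% (7.83 to 11.4), beside 8.90% of all regions. This was less frequent than in the regions bound throughout, 11.8%, odds ratio 0.781 (0.623 to 0.980), and in the medium-only regions, 13.6%, odds ratio 0.663 (0.521 to 0.844), but not than in the high and medium regions, 8.21%, odds ratio 1.17 (0.908 to 1.50). With start sites of protein-coding genes alone, the interval against the regions bound throughout included 1, at 0.874 (0.687 to 1.11). Promoter-proximal regions carried fewer OCT4 motifs, with an octamer or Oct-Sox match in 11 of 100, 11% (6.25 to 18.6), against 25.1% (22.4 to 27.9) of the others, and the intervals did not overlap. The ESRRB motif was found in 10 of the 100, against 10.96% of the others.

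The 3 regions closest to a start site of a protein-coding gene were at *Rcc1*, the exchange factor for the GTPase Ran (chr4:131907532-131907571, 1 bp), *Accsl* (chr2:93709212-93709251, 3 bp) and *Eya1*, a transcriptional co-activator of organ development (chr1:14300172-14300211, 8 bp). Each was 40 bp wide and held no octamer, Oct-Sox or ESRRB match. The regions at *Rcc1* and *Eya1* had another OCT4 region next to them, 20 bp away and called in negative cells alone at *Rcc1*, and 40 bp away and called in medium cells alone at *Eya1*.

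Close neighbours of this kind were found at other high-only regions too. Another region of any list lay within 500 bp of 272 high-only regions, 25.7% (23.2 to 28.4). The high-only share was above that in the regions of high and medium, 21.9%, odds ratio 1.23 (1.04 to 1.46), in those bound throughout, 15.9%, odds ratio 1.83 (1.56 to 2.16), and in the medium-only regions, 19.02%, odds ratio 1.47 (1.23 to 1.76). Overlapping peaks were merged over all datasets, and the classes differ in width. The part of this merging in the differences in close neighbours was not tested. Of the 272 nearest neighbours, 187, 68.8%, were OCT4 regions of medium or negative cells, 62 of which were not called in high cells. An OCT4 region of medium cells lay within 500 bp of 176 high-only regions, 16.6%, beside 11.5% of all regions, and within 100 bp of 108 high-only regions. The rule asks for exact intervals, so a region counted as high only can stand a few bases from an OCT4 region of another population. Without the 272 regions, 786 remained, of which 23.9% held an octamer or Oct-Sox match and 11.1% the ESRRB motif, and the odds ratios against the regions bound throughout, also restricted to those without a close neighbour, were 0.554 for the octamer, 0.530 for the Oct-Sox element and 1.61 for the ESRRB motif.

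NANOG, absent by the rule from the regions themselves, was called close to a minority of them. A NANOG region lay within 500 bp of 117 high-only regions, 11.1% (9.31 to 13.1), beside 7.72% of all regions. By class it was 4.90% of the regions bound throughout, odds ratio 2.41 (1.90 to 3.06), 7.74% of the medium-only regions, odds ratio 1.48 (1.15 to 1.91), and 9.70% of the high and medium regions, odds ratio 1.16 (0.916 to 1.46). The distance was at most 100 bp for 70 regions and 20 bp, the smallest that occurred, for 28. The OCT4 motif share did not separate these regions, at 22.2% (15.6 to 30.6) with a NANOG region within 500 bp and 23.9% (21.3 to 26.7) without. A NANOG region lay within 10 kb of 26.6% (23.99 to 29.3) of the high-only regions, beside 24.3% of all regions. At that distance the odds ratio against the regions bound throughout, 19.8%, was 1.46 (1.25 to 1.71), while the intervals included 1 against the medium-only regions, 27.2%, at 0.968 (0.818 to 1.14), and against the high and medium regions, 28.6%, at 0.902 (0.767 to 1.06).

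At 10 kb, 51.5% of the high-only regions had another region of any list nearby, beside 51.2% for high and medium, 52.1% for medium only, 43.8% for the regions bound throughout and 46.3% for all regions. The median distance to the nearest region was 8440 bp (interquartile range 460 to 40920 bp). Another high-only region lay within 10 kb of 69 regions, 6.52% (5.19 to 8.17), beside 3.91% of all regions. By class the share was 4.03% of the high and medium regions, odds ratio 1.66 (1.21 to 2.28), and 4.01% of the regions bound throughout, odds ratio 1.67 (1.25 to 2.23). Against the medium-only regions, 5.32%, the interval included 1, with an odds ratio of 1.24 (0.909 to 1.69). Isolation did not go with fewer OCT4 motifs. An octamer or Oct-Sox match was found in 26.7% (23.1 to 30.7) of the 513 regions with nothing within 10 kb. The share was 18.7% (14.5 to 23.7) of the 273 whose nearest neighbour was between 500 bp and 10 kb away. The intervals overlapped, and the difference was not tested.

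**Figure D3:**
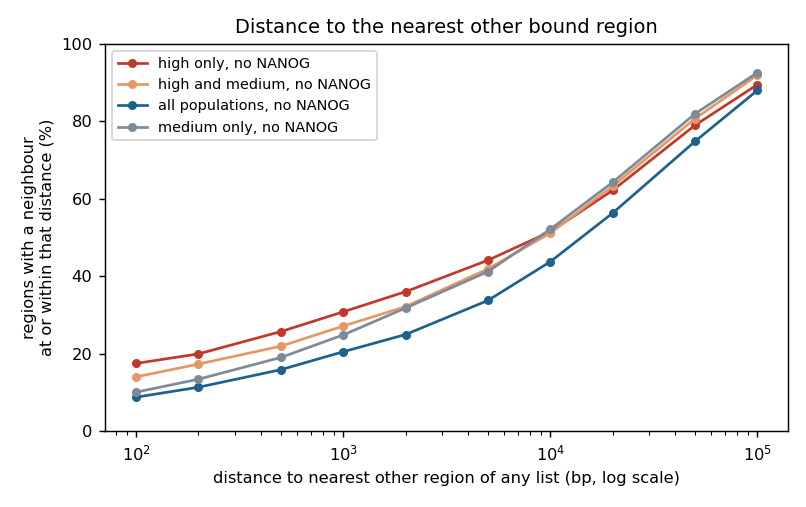
Cumulative share of regions (y axis, %) whose nearest other region of any list lies at or within a given distance (x axis, bp, log scale), for 4 classes of OCT4 regions without NANOG. The high-only regions (red) are the highest curve up to 5 kb, at 17.5% within 100 bp and 25.7% within 500 bp, and meet the high and medium and medium-only curves at 10 kb.

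Regions were spread over all autosomes and chromosome X. Their share of the OCT4 regions of high cells without NANOG ranged from 8.16% (6.19 to 10.7) on chromosome 11, 47 of 576, to 16.5% (13.3 to 20.2) on chromosome 13, 74 of 449, with 16.3% on chromosome 12, 57 of 350. Chromosome X had 20 of 157, 12.7%, and chromosome Y 0 of 2. On the 3 named autosomes the interval excluded the genome-wide 12.1%, among 20 chromosomes compared without adjustment.

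**Figure D4:**
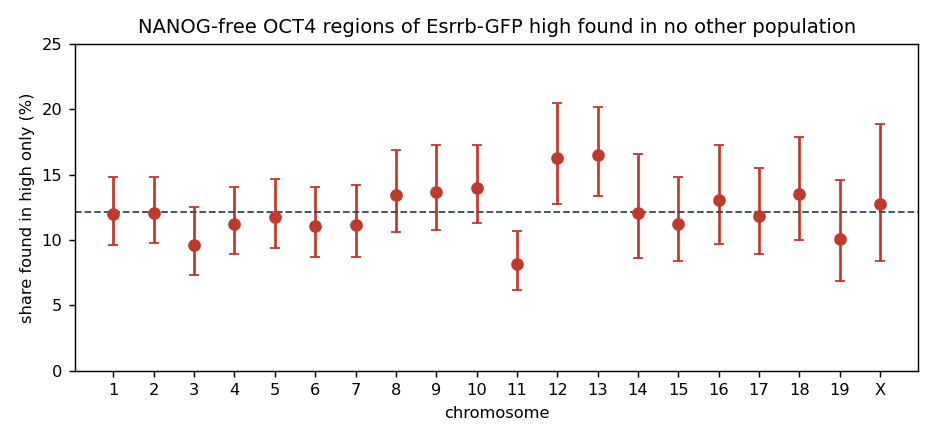
Share of the NANOG-free OCT4 regions of Esrrb-GFP high cells that were found in no other population (y axis, %), by chromosome (x axis). Bars are 95% Wilson intervals over regions and the dashed line is the genome-wide 12.1%. Chromosome 11 lies below the line, chromosomes 12 and 13 lie above it, and the intervals of the other chromosomes include it.

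A minority of the regions had repeated sequence at the centre. The central 31 bases occurred more than once in the genome in 109 regions, 10.3% (8.61 to 12.3), beside 8.82% of all regions and 8.98% of the regions bound throughout. More than 100 copies were found for 28 regions, 2.65%, beside 1.50% of all regions. Against the regions bound throughout, 1.51%, the odds ratio was 1.77 (1.13 to 2.78). The high and medium regions, 2.90%, odds ratio 0.911 (0.585 to 1.42), and the medium-only regions, 2.96%, odds ratio 0.892 (0.566 to 1.41), had shares close to that of the high-only regions, with intervals that included 1. Regions with repeated centres held the ESRRB motif in 5.50% (2.55 to 11.5) and an OCT4 motif in 16.5% (10.7 to 24.6), against 11.5% (9.61 to 13.7) and 24.6% (21.9 to 27.4) of those with a unique centre. The intervals overlapped, which alone does not show that the shares are equal, and the differences were not tested. The part of multiply mapping reads in these calls was not tested either.

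Within 20 kb of the body of a gene stood 783 of the regions, and 275 had no gene at that distance. In all 1286 annotated genes had a high-only region, of which 945 were protein-coding, 4.22% of 22380. Most had 1 region (1204 genes), while 75 had 2, 6 had 3 and 1 had 4. Other regions often lay near the same genes. Of the 945, 639 also had an OCT4 region of medium cells within 20 kb, 67.6% (64.6 to 70.5), 527 an OCT4 region of negative cells, 55.8% (52.6 to 58.9), and 474 a NANOG region of high cells, 50.2% (47.0 to 53.3). Over all 22380 protein-coding genes these shares were 36.2%, 28.4% and 23.3%, with gene length not matched. For 218 genes the high-only region was the sole region of any list.

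*Frmd4a*, which encodes a FERM-domain scaffold protein, had the most, 4 regions, all in introns of a gene of 596 kb. Of these, 2 lay 20 bp apart (chr2:4472512-4472551 and chr2:4472572-4472611), and the region at chr2:4460232-4460291 held an Oct-Sox match with 2 mismatches. Another 8 regions of the lists lay within 20 kb of the gene, 5 of the 12 in all were OCT4 regions of medium cells and 2 of negative cells. *Magi1*, *Trak1*, a mitochondrial transport adaptor, *Adam19*, a membrane metalloprotease, and *Onecut2*, a homeobox transcription factor, had 3 each. The 3 of *Adam19*, all intronic, are also those counted for *Gm12166*, a gene model annotated under 2 identifiers beside it. *Magi1* spans 608 kb and *Adam19* 92.8 kb, and the number of regions within reach grows with gene length.

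Genes of the pluripotency network were examined from lists. Neither of the 2 core genes had a high-only region within 20 kb, although both had an OCT4 region of high cells. Of 36 genes of the naive state, 6 had one, *Esrrb*, *Nr5a2*, *Dppa5a*, *Mybl2*, *Pecam1* and *Zfp57*, while 32 had an OCT4 region of high cells of any kind. Of 26 formative genes 1 had one, *Tdgf1*, and of 33 lineage transcription factors 0. Of 29 genes of FGF and ERK signalling 6 had one (*Fgfr2*, *Spry4*, *Dusp5*, *Map2k1*, *Grb2* and *Ptpn11*), of 38 Wnt pathway genes 5 (*Tcf7l1*, *Apc*, *Fzd5*, *Wnt3a* and *Sfrp1*), of 34 TGF beta pathway genes 2 (*Bmp7* and *Tdgf1*) and of 36 chromatin regulators 2 (*Hdac2* and *Jarid2*). In all, 21 of 218 listed genes had a high-only region. The background of 4.22% covers all protein-coding genes, of which 40.8% had an OCT4 region of any population within 20 kb, and gene length was not matched, so nothing particular to a list follows from these counts.

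At *Esrrb* itself (ENSMUSG00000021255, chr12:87702067-87862578, plus strand), the high-only region lay 4973 bp beyond the end of the gene and held an exact octamer. It stood apart, 17860 bp from the nearest other region and 21760 bp from the nearest NANOG region. Within 20 kb of the gene were 10 regions in all, 6 of them OCT4 regions of medium cells, 2 of negative cells and 7 with NANOG. The sequence is given with its octamer in capitals.
chr12:87867552-87867591: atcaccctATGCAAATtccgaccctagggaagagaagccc

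*Dppa5a*, which encodes an RNA-binding protein abundant in ESCs (ENSMUSG00000060461, chr9:78214859-78215984, minus strand), had a high-only region on either side. The downstream one, chr9:78213872-78213931, was 927 bp beyond the gene, held an ESRRB match with 1 mismatch, and was 1080 bp from a region with OCT4 in all populations and NANOG in high cells. The upstream one, chr9:78217852-78217891, was 1867 bp before the gene, held none of the 3 motifs and was 440 bp from a NANOG-free OCT4 region of all populations. Of 12 regions within 20 kb, 10 were OCT4 regions of medium cells and 2 of negative cells. The downstream region is shown with the ESRRB match in capitals.
chr9:78213872-78213931: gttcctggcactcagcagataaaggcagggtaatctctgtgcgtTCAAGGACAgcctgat

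*Mybl2*, which encodes the transcription factor B-MYB (ENSMUSG00000017861, chr2:162880423-162910424, plus strand), had an intronic region, chr2:162893252-162893291, and one 10587 bp beyond the gene, chr2:162921012-162921071. The intronic region had an OCT4 region called in medium cells alone 20 bp away, chr2:162893192-162893231. The Oct-Sox match with 2 mismatches that was counted for the high-only region lies inside that neighbour (chr2:162893217-162893230), and the ESRRB match with 1 mismatch lies beyond it (chr2:162893180-162893188). The fragment below spans the 2 regions, with the ESRRB match first in capitals, on the minus strand, and the Oct-Sox match second.
chr2:162893180-162893291: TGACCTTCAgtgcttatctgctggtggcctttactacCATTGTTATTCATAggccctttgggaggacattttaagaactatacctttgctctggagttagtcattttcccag

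*Tdgf1*, which encodes the Nodal co-receptor Cripto (ENSMUSG00000032494, chr9:110842114-110848662, minus strand), had a high-only region at the promoter, chr9:110848672-110848731, with its centre 40 bp upstream of the gene start. It held no octamer, Oct-Sox or ESRRB match and was 1060 bp from a region bound by OCT4 in all populations and by NANOG in high cells. *Nr5a2*, encoding the nuclear receptor LRH-1 (chr1:138740161-138857004), had an intronic region, chr1:138845912-138845951, 100 bp from an OCT4 region of high and medium cells. *Pecam1*, a cell adhesion molecule (chr11:106515531-106611942), had one in an intron, chr11:106565872-106565911. *Zfp57*, a KRAB zinc-finger protein that maintains imprints (chr17:37138108-37147580), had 2 at a distance, chr17:37119632-37119671, 18436 bp before the gene and 240 bp from a region with OCT4 and NANOG, and chr17:37163452-37163571, 15871 bp beyond it, whose centre occurred 9 times in the genome. The 4 regions at *Nr5a2*, *Pecam1* and *Zfp57* held none of the 3 motifs.

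**Figure D5:**
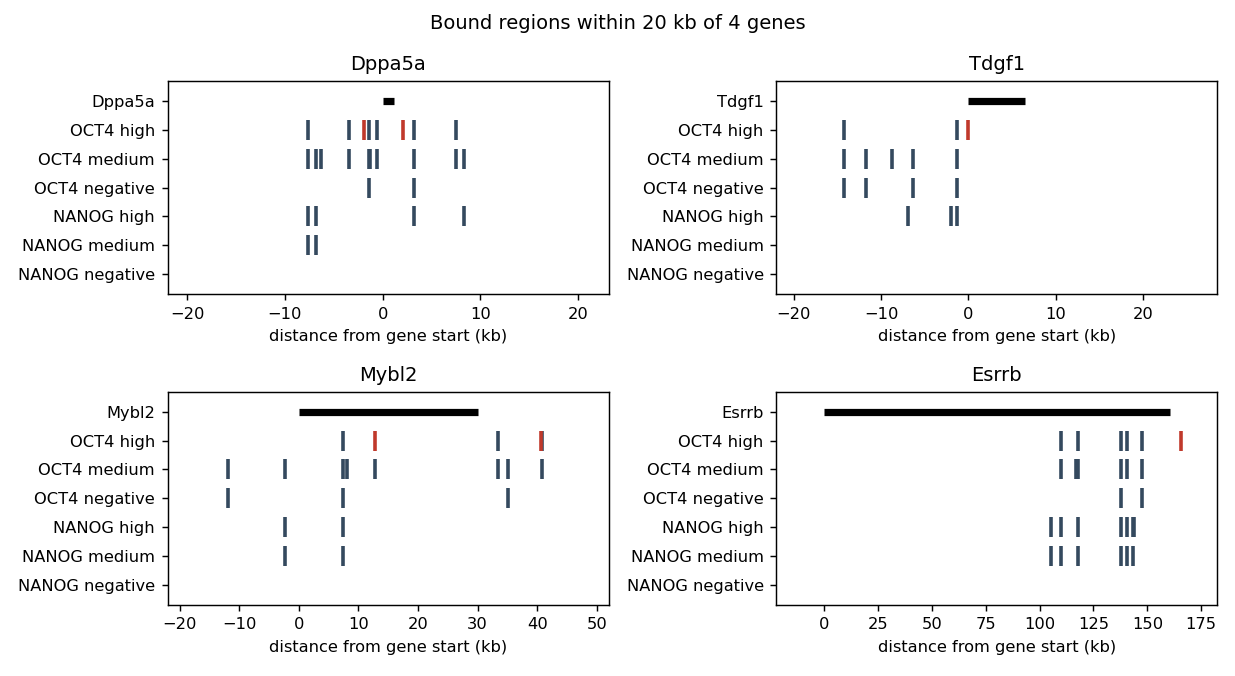
Bound regions within 20 kb of *Dppa5a*, *Tdgf1*, *Mybl2* and *Esrrb*, each as a mark at its distance from the gene start in the direction of transcription (x axis, kb), in 1 row for each factor and population, with the gene as a black bar. High-only regions without NANOG are red and other regions dark. The red marks of *Dppa5a* lie between OCT4 regions that were also called in medium cells, that of *Tdgf1* lies at the gene start with all other regions upstream, and that of *Esrrb* lies beyond the gene and every other region shown, 17860 bp from the nearest.

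Of the signalling genes, the region in an intron of *Tcf7l1*, which encodes the repressive TCF of ESCs, held an exact octamer and was 29660 bp from the nearest region. *Map2k1*, which encodes the ERK kinase MEK1, had a region 18393 bp upstream with an Oct-Sox match of 2 mismatches, 180 bp from an OCT4 region of medium cells. *Hdac2*, a histone deacetylase, had 2 regions 14820 bp apart, of which the one beyond the gene held an ESRRB match with 1 mismatch. The other *Hdac2* region held none of the 3 motifs. Nor did, within 100 bp of the centre, the regions at *Fgfr2*, *Spry4*, *Dusp5*, *Grb2*, *Ptpn11*, *Apc*, *Fzd5*, *Wnt3a*, *Sfrp1*, *Bmp7* and *Jarid2*.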

How the data were processed

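OCT4 and NANOG ChIP-Seq of 3 sorted populations was examined, 6 libraries, grouped by the antibody and fraction in their labels. The deposited files hold genomic intervals (chromosome, start, end) without score, signal or count. Reads had been aligned to mm9, with Bowtie named in the submitters' processing notes and its version not given in the sources used here, and peaks called in GeneProf with SISSRs, joined across datasets and filtered by retained signal. Widths are multiples of 20 bp. The 6 lists share intervals exactly, and 0 pairs of distinct intervals overlap.

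The regions and all lists of genes and motifs were chosen with earlier results of these data known. GENCODE annotation of that assembly gave the genes, within 20 kb of the gene body. Motifs were scanned on both strands within 100 bp of centres, and copies of the central 31 bases were counted in the genome. Wilson intervals are given for shares and Wald intervals on the log scale for odds ratios, both at 95%, against 3 classes of NANOG-free OCT4 regions. Named were regions within 20 kb of core, naive and formative genes, the genes with most regions, the 5 widest regions, the 3 closest to a start site, and sequences with the fewest Oct-Sox mismatches or an exact ESRRB motif; a sixth Oct-Sox sequence overlaps an annotated exon and was left out. Regions of genes in the other lists, and regions next to others, were named after their values were seen. Alternatives were other windows, mismatch limits, distances, stratification by width or GC content and chromosome sets; distances of 500 bp and classes without close neighbours were added after seeing the data. Python 3.11.15, numpy 2.4.6, pandas 2.3.3, scipy 1.17.1, pysam 0.24.0, samtools 1.23.1 and matplotlib 3.10.9 were used. On simulated data 11 of 11 known answers were recovered.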

Additional observations from a re-analysis of the deposited data

How the results depend on the processing

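No paired analysis was possible because each factor and population has 1 library. Depth is unknown, so a region absent from a list cannot be told from one missed at low depth, and no leave-one-out value exists.

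With windows of 50 bp and 250 bp either side, the octamer was found in 5.10% and 10.1% of regions, the Oct-Sox element in 12.9% and 20.5% and the ESRRB motif in 6.24% and 21.6%. Allowing 1 mismatch gave 37.5% for the octamer and 2.55% for the Oct-Sox element, and exact matches 1.32% for the ESRRB motif. For the octamer, the Oct-Sox element and the ESRRB motif, odds ratios against regions bound throughout kept their direction and excluded 1 under every alternative run. Other mismatch limits were not run for odds ratios. For start sites within 1 kb, the interval against the same regions included 1 with protein-coding genes alone, 0.874 (0.687 to 1.11). The Oct-Sox odds ratio against high and medium lost its call with width strata, 0.862, and with 50 bp windows, 0.848. The octamer odds ratio against medium only, which included 1 in the main setting, fell to the other side of 1 in 250 bp windows, 0.996. Within 5 kb, 25.7% of regions were near a start site and 720 genes had a region. Another region lay within 500 bp, 1 kb and 50 kb of 25.7%, 30.8% and 79.0%, and a NANOG region of 11.1%, 13.8% and 51.8%. With 24 central bases, 14.6% were repeated. The shares and counts moved with the distance, window or mismatch limit allowed, and the cause of the 2 lost calls and of the change of side was not tested. In the other 67 settings shares moved by less than their interval and odds ratios kept their side of the threshold. Counts, which have no interval, are also among these 67. The count of regions was 1038 on autosomes and 786 with no region within 500 bp. Genes with a region fell from 1286 to 943 within 20 kb of a start site and 945 when protein-coding. Listed genes with a region fell from 21 to 15 within 5 kb and 16 within 20 kb of a start site.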

Other observations

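Hexamers within 100 bp of the centre were compared between the high-only regions and NANOG-free OCT4 regions of the 3 comparison classes, with odd-numbered chromosomes used to choose and the rest to test. Of 2073 hexamers, counted together with their reverse complements, the 5 with the highest ratio of shares on the odd-numbered chromosomes were rare, each in 6 to 9 high-only regions, and all hold a CpG. On the remaining chromosomes the hexamer AACGTA was the one whose interval excluded 1, found in 10 high-only regions, 1.90%, against 0.870% of the others, odds ratio 2.20 (1.09 to 4.48). The other 4 had intervals that included 1.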
